A study of Drosophila melanogaster with 8 samples.

Results

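The genes that make, modify, degrade and package chitin were followed in RNA-seq libraries of whole *Drosophila* larvae. They are 10 genes taken by name, *mmy*, *kkv*, *reb*, *knk*, *serp*, *verm*, *Cht2*, *Cht5*, *obst-A* and *Gasp*, of 17473 genes in the deposited tables. The rule used their names and no measured value, and it was set with earlier results of these data known. The study deleted *U12* and *U6atac*, the small nuclear RNAs that are specific to the minor spliceosome, and *Smn*, whose protein assembles spliceosomal snRNPs, and compared each homozygous strain with wild type. There were 8 libraries, 2 each from the *WT* strain (w1118) and from CRISPR/Cas9 strains homozygous for a deletion of *U12* (U12 Δ/Δ), of *U6atac* (U6atac Δ/Δ) or of *Smn* (Smn Δ/Δ), called here the U12, U6atac and Smn strains. The labels give L3 for all and the methods L3 wandering, no treatment is stated, and the RNA of 12 larvae was pooled for each library. From a comparison with staged transcriptomes the study placed the sequenced Smn larvae at another stage of L3 than the remaining strains, so stage and *Smn* deletion cannot be told apart. The deletions are carried by the whole animal, the strains had been crossed to *WT* and kept over *CyO* or *TM3* GFP balancers, and the methods describe 1 strain per deletion, so strain and deletion cannot be told apart. Values are TPM, reads per gene length scaled to a fixed total in each library. They allow levels of different genes to be set side by side within a library, while between libraries they also move with the few most abundant genes, of which the top 10 took 16.6% to 35.0% of the total.

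Chitin is a polymer of N-acetylglucosamine that stiffens the insect cuticle, lines the tracheal tubes and forms the peritrophic matrix of the gut. Epithelial cells make the activated sugar UDP-N-acetylglucosamine, a chitin synthase in the apical membrane polymerizes and extrudes it, and secreted proteins then order, deacetylate and bind the fibres. At each moult chitinases digest the old cuticle while a new one is laid down, so these genes are known to be expressed in pulses that follow the moulting hormone.

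*Smn* was lower in both Smn libraries, at 4.57 and 0.653 TPM, than in any other library, where it was between 9.57 and 200.3 TPM. The *U12* snRNA gene was listed at 0 in both U12 libraries and at 0.0724 to 1.33 TPM elsewhere. Values so near 0 are a weak check of the U12 label. The *U6atac* gene was at 0 in all 8, so its label could not be checked. The 2 libraries of a strain differed widely. Between 44.0% and 50.3% of the 11122 genes tested, those with a mean TPM of at least 1, differed over 2-fold between them. Glue genes of the salivary gland (6 genes) and larval fat body genes (6 genes), which are abundant late in L3, summed to 1.06 and 0.872 TPM and to 3.89 and 0.507 TPM in the Smn strain. In the other 6 libraries they summed to 18.3 to 211173 TPM and to 28353 to 116163 TPM, and *Sgs5* was the one marker at 0 in both Smn libraries. The early L3 salivary gland genes *ng1*, *ng2* and *ng3* summed to 1111 and 2384 TPM in the Smn strain and to 125.3 to 644 TPM in the others. *ng3* alone was at 291 TPM in the first Smn library, under the 594 TPM of the second U12 library. The Smn comparisons below are thus not matched in stage, and the part of stage in them cannot be told apart from that of the deletion. The glue sum also differed among the other libraries, at 16212 and 8048 TPM in *WT*, 211173 and 18.3 in the U12 strain and 643 and 2220 in the U6atac strain. Whether these libraries were matched in stage, between or within strains, was not tested. Muscle and neuron markers were present in every library. Of the tissues that secrete chitin, the midgut markers summed to 1716 to 22701 TPM, *trh* and *btl* of the trachea to 3.12 to 31.8 TPM, and *grh*, *Ddc*, *vvl* and *Blimp-1* of the ectoderm to 21.8 to 356 TPM. In whole larvae, fewer cells of a type and less RNA per cell cannot be told apart.

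In the Smn strain, *obst-A*, *knk*, *verm* and *Cht5* were higher in both libraries than in both *WT* libraries, and *Cht2* was lower. That makes 4 of 10 genes beyond *WT* upwards, where 20.4% of all genes tested were, and 1 of 10 downwards, where 25.6% were. In the U12 strain, *mmy* and *kkv* lay above both *WT* libraries (2 of 10, against 10.4% of all genes) and *reb* and *serp* below (2 of 10, against 31.2%). In the U6atac strain, only *obst-A* lay above (1 of 10, against 11.9%) and only *serp* below (1 of 10, against 33.0%). *obst-A* thus lay above in the Smn and U6atac strains and *serp* below in the U12 and U6atac strains. These comparisons share the *WT* libraries, and the share of all genes beyond *WT* in more than 1 strain was not counted.

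None of the 10 genes passed the test in any strain. With limma on log2(TPM + 1) and Benjamini-Hochberg adjustment over all genes tested, 0 of 10 had an adjusted p under 0.05. The test called 168 of 11122 genes in the Smn strain (1.51%) and 0 of 11122 in each of the other strains (0%). At an unadjusted p under 0.05 there were 2 of the 10 in the Smn strain, *knk* and *obst-A*, against 13.9% of all genes, and 0 in the U12 and U6atac strains, against 9.44% and 10.3%. The median log2 fold change of the 10 genes was 1.62 in the Smn strain, where that of all genes was −0.18. It was 0.66 in the U12 strain beside −0.53 for all genes, and 0.36 in the U6atac strain beside −0.49. Of the 10 estimates, 6, 7 and 6 were above 0 in the 3 strains in that order. Single libraries moved these medians. In the Smn strain the median of the 10 was 0.27 without *WT* replicate 1 and 0.99 without Smn replicate 1. In the U12 strain it was 1.44 without U12 replicate 1 and 0.13 without U12 replicate 2, and in the U6atac strain −0.30 without *WT* replicate 1 and −0.41 without U6atac replicate 1. Standard errors of the 10 estimates ran from 1.06 to 1.94 on the log2 scale, and every 95% interval except those of *knk* and *obst-A* in the Smn strain included 0.

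**Figure D1:**
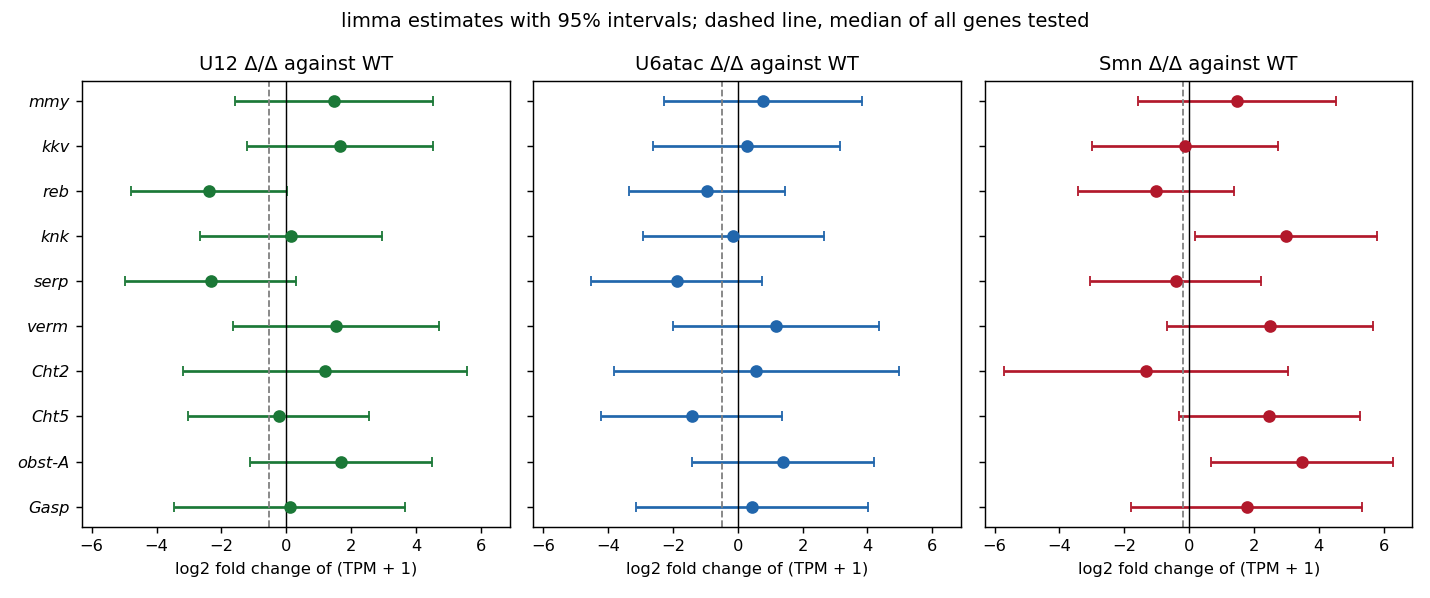
The log2 fold change of TPM + 1 against *WT* (x axis) of each of the 10 chitin genes (y axis) in the 3 deletion strains, as limma estimates with 95% intervals, beside the median of all genes tested (dashed line). Only the intervals of *knk* and *obst-A* in the Smn strain lie clear of 0, and neither passes the adjusted threshold.

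*mmy* and *kkv* stand at the start of the pathway. *mmy* encodes the pyrophosphorylase that makes UDP-N-acetylglucosamine, the substrate of chitin synthesis and of protein glycosylation. It is on the minus strand of chromosome 2L at 6468538 to 6473904 (dm6). *mmy* measured 22.9 and 33.3 TPM in *WT*, 35.4 and 173 in the U12 strain, 98.2 and 23.3 in the U6atac strain and 190.2 and 31.8 in the Smn strain. It was lowest and steadiest in *WT*, with a mean of 28.1 ± 7.36 TPM (SD, n = 2), and each deletion strain held 1 library near *WT* and 1 that was well above it. The lower U12 library was only just above *WT*. The higher one was the second library in the U12 strain and the first in the other two. The estimates were 1.48 in the U12 strain, 0.78 in the U6atac strain and 1.47 in the Smn strain, each with a standard error of 1.35 (limma adjusted p 0.742, 0.881 and 0.666).

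*kkv* encodes the chitin synthase of the epidermis, trachea and other ectodermal epithelia. The gene is on the minus strand of 3R at 5378093 to 5392866, with 3 annotated transcripts, and an intron of it holds *CG14668*, which shares no exonic bases with it. *kkv* measured 23.5 and 112.8 TPM in *WT*, 146.1 and 190.4 in the U12 strain, 125.1 and 31.2 in the U6atac strain and 81.1 and 27.2 in the Smn strain. The U12 strain had the highest level and the closest libraries, at 168 ± 31.3 TPM (SD, n = 2), and both lay above *WT*. In the U6atac and Smn strains the libraries overlapped those of *WT*, whose own 2 libraries differed 4.80-fold. By mean the order was U12, U6atac, *WT*, Smn, and the last 3 overlapped each other. The estimate in the U12 strain was 1.67 with a 95% interval of −1.20 to 4.54 (limma adjusted p 0.684), and in the Smn strain it was −0.13 with an interval of −3.002 to 2.74 (0.976).

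The levels of *kkv* and *mmy* were of a similar size. The ratio of *kkv* to *mmy* TPM was above 1 in 6 of 8 libraries and ran from 0.426, in the first Smn library, to 4.13, in the first U12 library. *kkv* was above *Chs2*, the chitin synthase gene of the gut, in all 8 libraries, by between 1.15-fold and 56.0-fold.

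**Figure D2:**
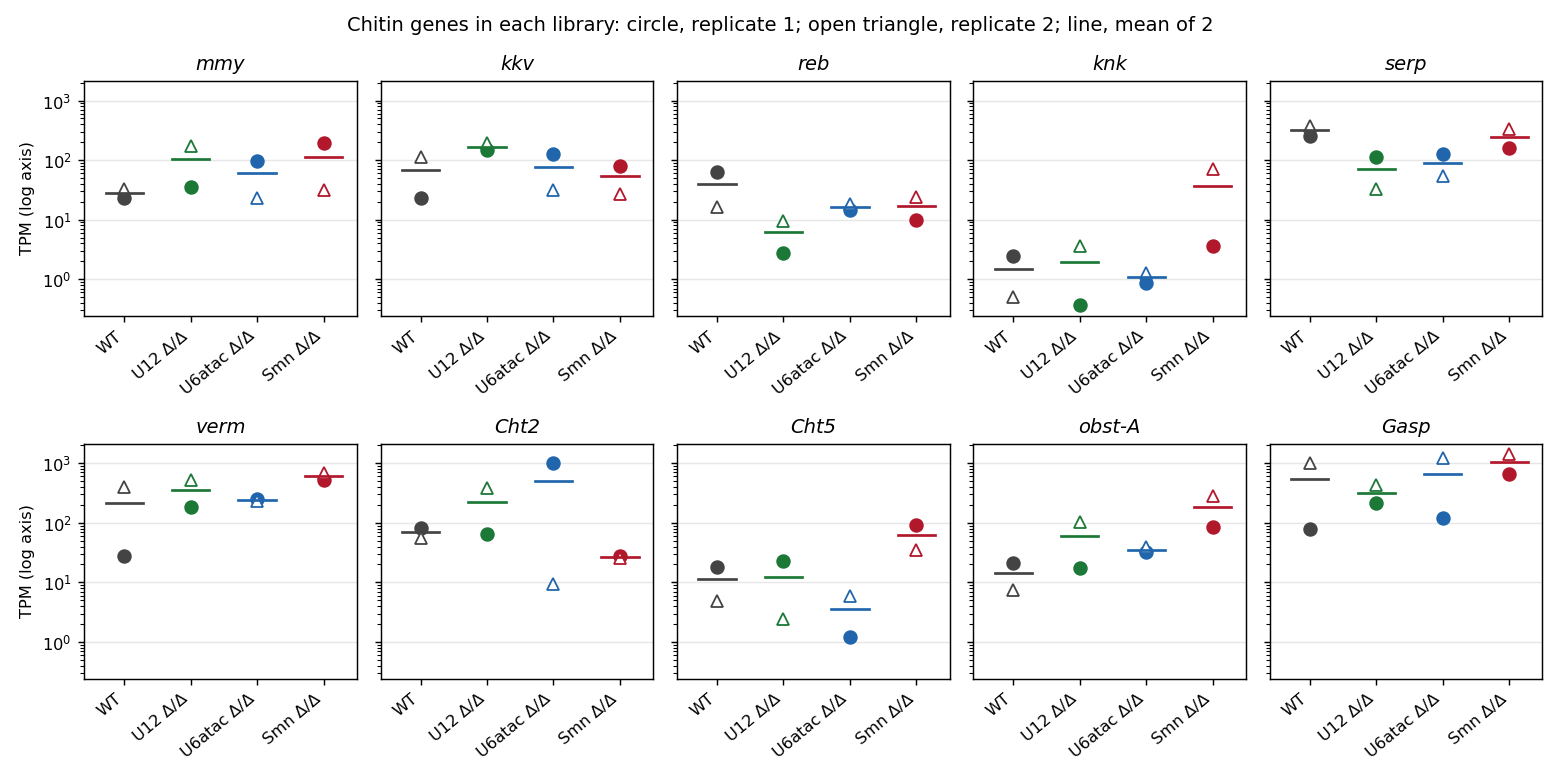
TPM on a log axis (y) of each of the 10 chitin genes by strain (x), with replicate 1 as a circle, replicate 2 as an open triangle and a line at their mean. *obst-A*, *knk*, *verm* and *Cht5* lie above both *WT* libraries in the Smn strain, and gaps within a strain reach 19.8-fold for *knk* in the Smn strain and 107-fold for *Cht2* in the U6atac strain.

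*reb* and *knk* act in the deposition and ordering of the polymer. *reb* encodes a protein that, with its relative *exp*, is needed in *Drosophila* for chitin to be deposited by the synthase. It lies on the minus strand of 2R at 11904323 to 11912779, and 26777 bases separate it from *exp*. *reb* measured 62.1 and 16.5 TPM in *WT*, 2.81 and 9.51 in the U12 strain, 14.6 and 18.0 in the U6atac strain and 9.80 and 23.9 in the Smn strain. It was lowest in the U12 strain, where the mean was 0.157 times that of *WT* and both libraries lay under *WT*, while the other strains overlapped *WT*. The estimate in the U12 strain was −2.39 with a 95% interval of −4.80 to 0.0081 (limma adjusted p 0.527), and those in the U6atac and Smn strains were −0.95 and −1.02. *exp* stayed within 7.51 and 20.7 TPM in all 8 libraries, so the ratio of *reb* to *exp* moved mainly with *reb*, from 0.210 in the first U12 library to 4.10 in the first *WT* library.

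*knk* encodes a membrane-anchored protein that organizes chitin fibres and, in the beetle *Tribolium*, shields new chitin from chitinases. It lies on the minus strand of 3R at 10122365 to 10125664. It was the lowest of the 10 genes in 6 of 8 libraries. *knk* measured 2.43 and 0.500 TPM in *WT*, 0.367 and 3.59 in the U12 strain, 0.881 and 1.27 in the U6atac strain and 3.56 and 70.6 in the Smn strain. Both Smn libraries were above *WT*, but the first was at the level of the second U12 library and the second was alone at 70.6 TPM. The estimate in the Smn strain was 2.99 with a standard error of 1.24 and a 95% interval of 0.19 to 5.79 (limma unadjusted p 0.0387, adjusted p 0.334). It was 1.008 without Smn replicate 2 and 4.98 without Smn replicate 1. The gap between the Smn libraries was shared by the surrounding genes of the table, which is ordered along the chromosome here. The difference between the Smn libraries, replicate 1 minus replicate 2 on the log2(TPM + 1) scale, was −3.97 for *knk*. It ran from −5.83 to −2.19 in the 10 tested genes listed nearest to it, all with the same sign. With each gene set relative to the median of the 10 genes listed around it, tested or not, the *knk* estimate in the Smn strain was 0.55 (limma adjusted p 0.788). What this has to do with the level of *knk* was not tested. The exons of *knk* share 1712 bases (64.0%) with the antisense gene *asRNA:CR46038*. The use of strand in counting is not given in the sources used here, so reads of the pair cannot be told apart, although *asRNA:CR46038* was listed at 0 in all 8 libraries.

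*serp* and *verm* encode secreted chitin deacetylases that limit the length of tracheal tubes and shape the chitin matrix. They lie side by side on the minus strand of 3L, *verm* at 19690033 to 19695260 and *serp* at 19700977 to 19708015, with 5716 bases between them. *serp* measured 249.8 and 381 TPM in *WT*, 111.1 and 32.6 in the U12 strain, 125.4 and 55.0 in the U6atac strain and 157.5 and 336 in the Smn strain. Both minor spliceosome strains were below *WT* in both libraries, and the Smn strain overlapped *WT*. The mean of the U12 strain was 0.228 times and that of the U6atac strain 0.286 times the *WT* mean of 315 ± 92.6 TPM (SD, n = 2). The estimates were −2.33 in the U12 strain (standard error 1.17, limma adjusted p 0.558) and −1.88 in the U6atac strain (adjusted p 0.599). In the Smn strain the estimate was −0.42 (adjusted p 0.908).

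*verm* did not follow its neighbour. *verm* measured 27.7 and 397 TPM in *WT*, 185.8 and 514 in the U12 strain, 253 and 232 in the U6atac strain and 522 and 694 in the Smn strain. The first *WT* library was alone at the low end, 14.3-fold under the second, and only the Smn libraries were both above *WT*. The estimate in the Smn strain was 2.50 with a 95% interval of −0.67 to 5.66 (limma adjusted p 0.462), and leaving out 1 library at a time moved it between 0.60 and 4.39. The ratio of *verm* to *serp* TPM was above 1 in 7 of 8 libraries, with a median of 2.04. It was 0.111 in the first *WT* library and highest, at 15.7, in the second U12 library. Unlike *knk*, *verm* in *WT* stood apart from the genes listed around it, with a difference between the libraries of −3.79 where the median of the 10 listed neighbours was 0.14. The tables order the stretch around *verm*, *serp* and *mmy* by identifier and not by position, so these listed neighbours are mostly on other chromosomes.

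*Cht2* and *Cht5* encode chitinases of the glycoside hydrolase family that degrade chitin, and *Cht5* is the classical moulting chitinase of insects. *Cht2* lies on the minus strand of 3L at 1752328 to 1755934 and shares 63 exonic bases (2.07%) with *CG13921* on the opposite strand. *Cht2* measured 83.0 and 55.8 TPM in *WT*, 63.9 and 379 in the U12 strain, 1014 and 9.46 in the U6atac strain and 27.8 and 25.6 in the Smn strain. Both the highest and the lowest value were from the U6atac strain, and the Smn libraries agreed within 1.09-fold and were both below *WT*. Its estimates had the widest error of the 10 genes, 1.94, and were −1.32 in the Smn strain, 1.18 in the U12 strain and 0.58 in the U6atac strain (limma adjusted p 0.800, 0.864 and 0.949). Leaving out a U6atac or *WT* library moved the last of these between −2.72 and 3.88. The gaps within the U6atac strain and the U12 strain were again shared by listed neighbours. In the U6atac strain the difference of replicate 1 minus replicate 2 was 6.60 for *Cht2* and 2.71 to 8.71 for its 10 neighbours. In the U12 strain it was −2.55 for *Cht2* and −5.57 to −1.84 for the same 10. Relative to the 10 genes listed around it, tested or not, the *Cht2* estimate in the U6atac strain was −0.84.

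*Cht5* lies on the plus strand of 3R at 13767549 to 13770732. It measured 17.9 and 4.81 TPM in *WT*, 22.4 and 2.39 in the U12 strain, 1.19 and 5.999 in the U6atac strain and 91.8 and 35.04 in the Smn strain. The Smn strain was the one strain with both libraries above *WT*, and above every other library. Its mean of 63.4 ± 40.1 TPM (SD, n = 2) was 5.59 times that of *WT*. The estimate in the Smn strain was 2.46 with a 95% interval of −0.33 to 5.26 (limma adjusted p 0.411), and −0.23 in the U12 strain and −1.42 in the U6atac strain. *Cht2* and *Cht5* were in the reverse order in the Smn strain. The ratio of *Cht2* to *Cht5* TPM was above 1 in all 6 libraries of *WT*, the U12 strain and the U6atac strain, up to 850 in the first U6atac library, and under 1 in both of the Smn strain, down to 0.303.

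*obst-A* and *Gasp* encode secreted proteins with chitin-binding domains, of the obstructor family, that are laid into the matrix. *obst-A* serves as a scaffold on which the larval cuticle is ordered, and lies on the plus strand of X at 20239855 to 20243209. *obst-A* measured 21.5 and 7.50 TPM in *WT*, 17.6 and 104.0 in the U12 strain, 32.6 and 38.7 in the U6atac strain and 84.3 and 279 in the Smn strain. *WT* was the lowest strain by mean and the Smn strain the highest, at 181 ± 137 TPM (SD, n = 2), 12.5 times *WT*. The U6atac libraries lay between, both above *WT* and within 1.19-fold of each other. The estimate in the Smn strain was 3.48 with a standard error of 1.24 and a 95% interval of 0.68 to 6.28, the largest of the 10 genes in any strain (limma unadjusted p 0.0204, adjusted p 0.263). It ran from 2.62 to 4.34 when single libraries were left out. Relative to the genes listed around it, tested or not, it was 3.33 (adjusted p 0.131). The gap between the Smn libraries of −1.71 went against the median of its tested listed neighbours, 0.49. *Peritrophin-A*, which lies 1437 bases from *obst-A* and encodes another chitin-binding protein, was below both *WT* libraries (108 and 78.7 TPM) in all 3 deletion strains, at 25.8 and 27.4 TPM in the U12 strain, 72.7 and 63.1 in the U6atac strain and 12.4 and 29.3 in the Smn strain. Of all genes tested, 31.2%, 33.0% and 25.6% lay below both *WT* libraries in the U12, U6atac and Smn strains. The share below in all 3 was not counted. *Treh* of the chitin pathway was also below in all 3, but only just in the Smn strain. There it was at 91.8 and 110.25 TPM against 111.2 and 137.1 in *WT* (estimate −0.29, limma adjusted p 0.938). The ratio of *obst-A* to *Peritrophin-A* was 0.0953 in the second *WT* library and 9.50 in the second Smn library.

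*Gasp*, a chitin-binding protein of the cuticle and tracheal lining, had the highest mean of the 10 genes in *WT*, the U6atac strain and the Smn strain. It lies on the minus strand of 3R at 6088799 to 6100887. *Gasp* measured 79.0 and 1002 TPM in *WT*, 215 and 426 in the U12 strain, 120.1 and 1225 in the U6atac strain and 661 and 1407 in the Smn strain. All 3 deletion strains overlapped *WT*, whose libraries stood 12.7-fold apart. The estimates were 0.10, 0.44 and 1.77 in the U12, U6atac and Smn strains with a standard error of 1.58 (limma adjusted p 0.991, 0.951 and 0.654). The 10 genes listed around *Gasp* did not share the size of the *WT* gap, with a median of −0.08 where *Gasp* had −3.65. They ran from −2.57 to 3.87, and 6 of the 10 had the same sign as *Gasp*. In the U6atac strain the gap of *Gasp* was −3.34, and 5 of the 10 listed neighbours had the same sign. Those listed directly after *Gasp* ran from −7.47 to −3.73, and those directly before it from 0.26 to 3.13. *Gasp* was above *obst-A* in all 8 libraries, by 3.67-fold to 133.6-fold, both of them in *WT*.

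The sum of the 10 genes was 589.8 and 2011 TPM in *WT*, 801 and 1834 in the U12 strain, 1785 and 1639.5 in the U6atac strain and 1829 and 2930.15 in the Smn strain. The first *WT* and first U12 libraries were low, and the second Smn library was the highest. A few genes set this sum, and they were not the same ones in every library. *Gasp* made up 6.73% of it in the first and 74.7% in the second U6atac library, and *Cht2* made up 56.8% in the first. *serp* was the leading gene of the first *WT* library, at 42.3%. The deacetylases together were the steadiest class relative to their level, between 17.5% and 47.0%.

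**Figure D3:**
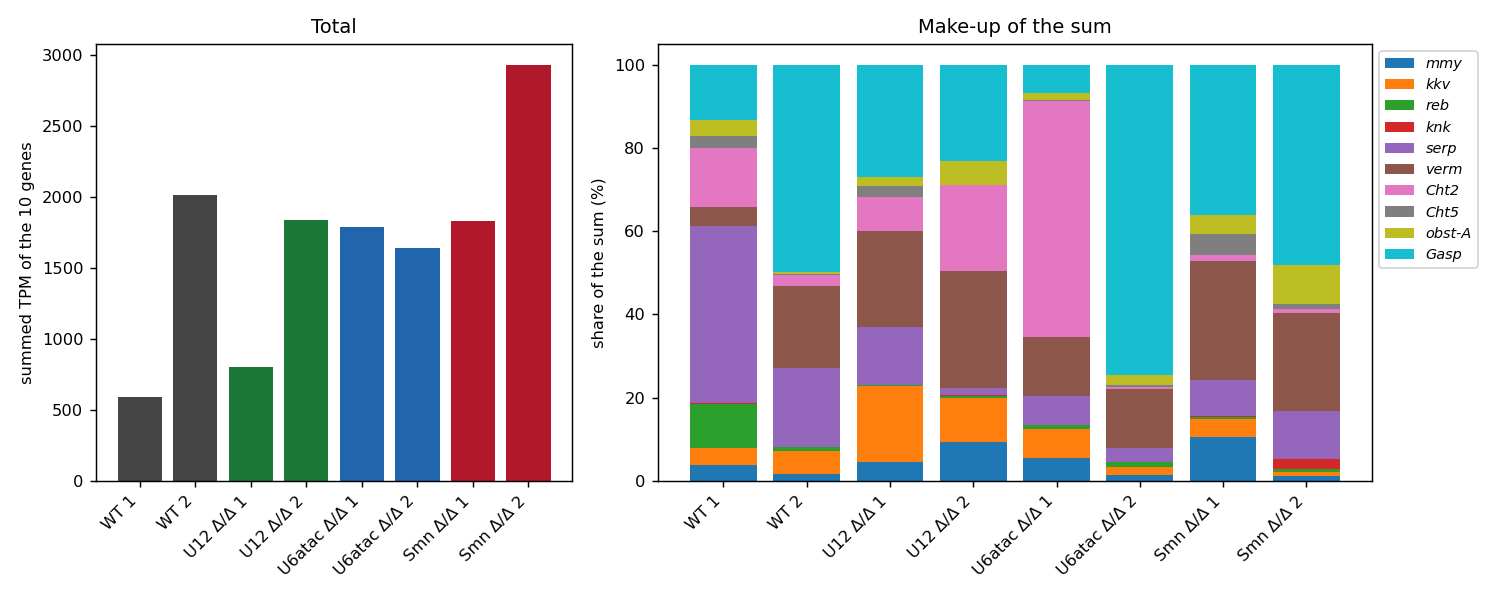
Summed TPM of the 10 chitin genes in each library (left) and the percent of that sum from each gene (right), libraries on both x axes. *Gasp* takes 74.7% of the second U6atac library, *Cht2* 56.8% of the first, and *serp* 42.3% of the first *WT* library.

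The 10 genes did not move as one block. Over the 8 libraries, which share strains in pairs, the 45 pairs of genes had Pearson correlations of log2(TPM + 1) from −0.76 (*reb* and *kkv*) to 0.85 (*knk* and *obst-A*), with a median of −0.02, and 22 were above 0. These are descriptions with no test. The genes most like *kkv* of all those tested were *LeuRS*, a leucyl-tRNA synthetase (r = 0.97), *mthl4* (0.91) and *Nmd3*, a ribosome export factor (0.90). *LeuRS* measured 12.9 and 81.7 TPM in *WT*, 79.4 and 186 in the U12 strain, 82.2 and 8.18 in the U6atac strain and 41.8 and 6.03 in the Smn strain. It had the same high and low library as *kkv* in every strain, which is part of the likeness it was picked for among 11121 genes. Most like the mean of the 10 genes were *CG11883* (r = 0.99), *l(1)G0289* (0.97) and *CG32694* (0.95).

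The spread within strains set the limit of all these comparisons. Of the 10 genes, 7 differed over 2-fold between the 2 *WT* libraries, 8 between those of the U12 strain, 6 between those of the U6atac strain and 8 between those of the Smn strain. The median difference of the 10 within a strain was 1.29 to 1.74 on the log2 scale, beside 0.85 to 1.01 for all genes tested. Among all genes tested, taken in the order of the tables, consecutive genes deviated together, with correlations of the within-strain difference of 0.44 to 0.52. How the tables came to have this property is not given in the sources used here, and it bears on every level, fold and p printed, since the difference of a gene between libraries went with those of the genes on nearby rows. Of the 40 combinations of gene and strain, 24 had the sign of the median of the 10 listed neighbours. These were 6 of 10 genes in *WT*, 8 in the U12 strain, 6 in the U6atac strain and 4 in the Smn strain. The share for all genes tested was not counted. The sharing was complete (10 of 10 neighbours) for *knk* in the Smn strain and for *Cht2* in the U12 and U6atac strains.

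**Figure D4:**
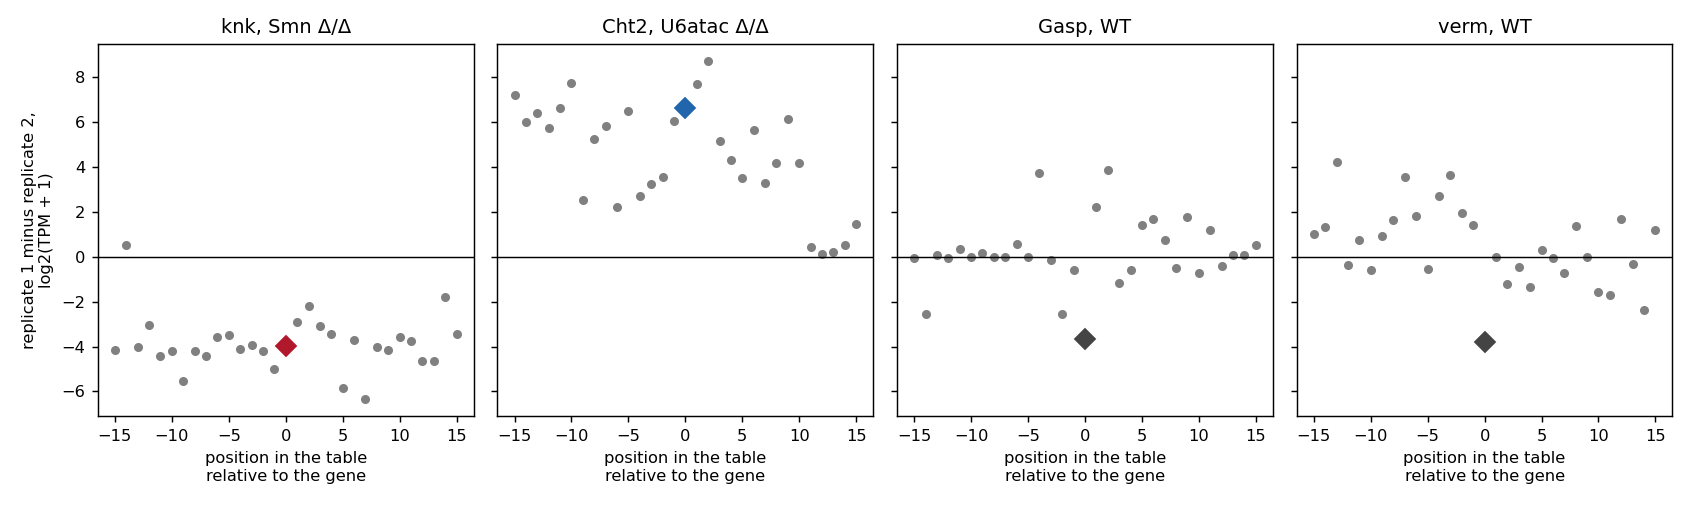
The difference between the 2 libraries of a strain, replicate 1 minus replicate 2 on log2(TPM + 1) (y axis), for a chitin gene (diamond) and tested genes around it (grey points) by place in the deposited table (x axis). The gaps of *knk* in the Smn strain (−3.97) and *Cht2* in the U6atac strain (6.60) sit among those of their neighbours, while *Gasp* (−3.65) and *verm* (−3.79) in *WT* stand apart from theirs.

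Other genes of chitin metabolism were listed by role, 41 in all, of which 39 were found in the tables. Of these, 36 passed the minimum mean TPM, *obst-I* and *Peritrophin-15b* were at 0 in all 8 libraries, and *Cht8* was too low. None of the 36 had a limma adjusted p under 0.05 in any strain. At an unadjusted p under 0.05 there were 4 in the Smn strain (11.1% of the 36, against 13.9% of all genes tested), 1 in the U12 strain (2.78% against 9.44%) and 2 in the U6atac strain (5.56% against 10.3%). Their median log2 fold changes were −0.37, −0.70 and −0.60 in that order, beside −0.18, −0.53 and −0.49 for all genes. In the Smn strain 8 of 36 lay above both *WT* libraries and 8 below, where 20.4% and 25.6% of all genes did. In the U12 strain 5 lay above and 11 below, against 10.4% and 31.2%, and in the U6atac strain 2 above and 11 below, against 11.9% and 33.0%. As shares of the 36, these counts were near or below those of all genes.

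Among genes beyond both *WT* libraries, the largest estimate on the higher side was that of *Cda5*, a deacetylase relative of *serp* and *verm*. *Cda5* measured 12.01 and 2.88 TPM in *WT*, 7.09 and 20.0 in the U12 strain, 94.0 and 20.4 in the U6atac strain and 291 and 92.5 in the Smn strain. It was above both *WT* libraries in the Smn strain (estimate 4.54, limma adjusted p 0.145) and in the U6atac strain (2.67, adjusted p 0.499). *Peritrophin-15a*, a peritrophic matrix protein, reached 1382 and 20758 TPM in the Smn strain against 589 and 92.5 in *WT* (estimate 4.51, adjusted p 0.322). *Chs2*, the gut chitin synthase, measured 126.8 and 46.8 TPM in the U12 strain against 7.65 and 3.79 in *WT* (estimate 3.60, adjusted p 0.413). Both chitin synthases, *kkv* and *Chs2*, were thus above *WT* in both U12 libraries, as were 10.4% of all genes tested. Neither passed the test (limma adjusted p 0.684 and 0.413). *obst-E*, an obstructor protein, measured 101.4 and 164.3 TPM in the U12 strain against 99.3 and 9.50 in *WT* (estimate 2.004, adjusted p 0.682). Its estimates were 2.30 and 2.42 in the U6atac and Smn strains, whose libraries overlapped *WT*. *Cht9*, a chitinase, had an estimate of 1.69 in the U6atac strain (adjusted p 0.636).

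On the lower side *Cht10*, a large chitinase needed for moulting in *Tribolium*, measured 652 and 100.2 TPM in *WT* and 20.3 and 27.3 in the U6atac strain, 20.9 and 70.8 in the Smn strain. Its estimates were −3.39 and −2.70 (limma adjusted p 0.451 and 0.416). In the Smn strain, therefore, *Cht10* and *Cht2* were below and *Cht5* above both *WT* libraries. Of the 10 other chitinase and hexosaminidase genes tested, *Cht10* included, 1 lay above and 3 below both *WT* libraries in the Smn strain. The shares of all genes tested were 20.4% and 25.6%. *obst-J* measured 47.9 and 67.5 TPM in *WT* and 1.08 and 4.75 in the U6atac strain (estimate −4.07, adjusted p 0.459). *Gnpnat*, the acetyltransferase upstream of *mmy*, measured 75.6 and 24.4 TPM in *WT* and 11.9 and 5.16 in the Smn strain (estimate −2.31, adjusted p 0.366). In the U12 strain the lowest estimates among genes below both *WT* libraries were those of *Hexo1*, a hexosaminidase (−2.52), and *Treh*, the trehalase that frees glucose (−2.09).

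**Figure D5:**
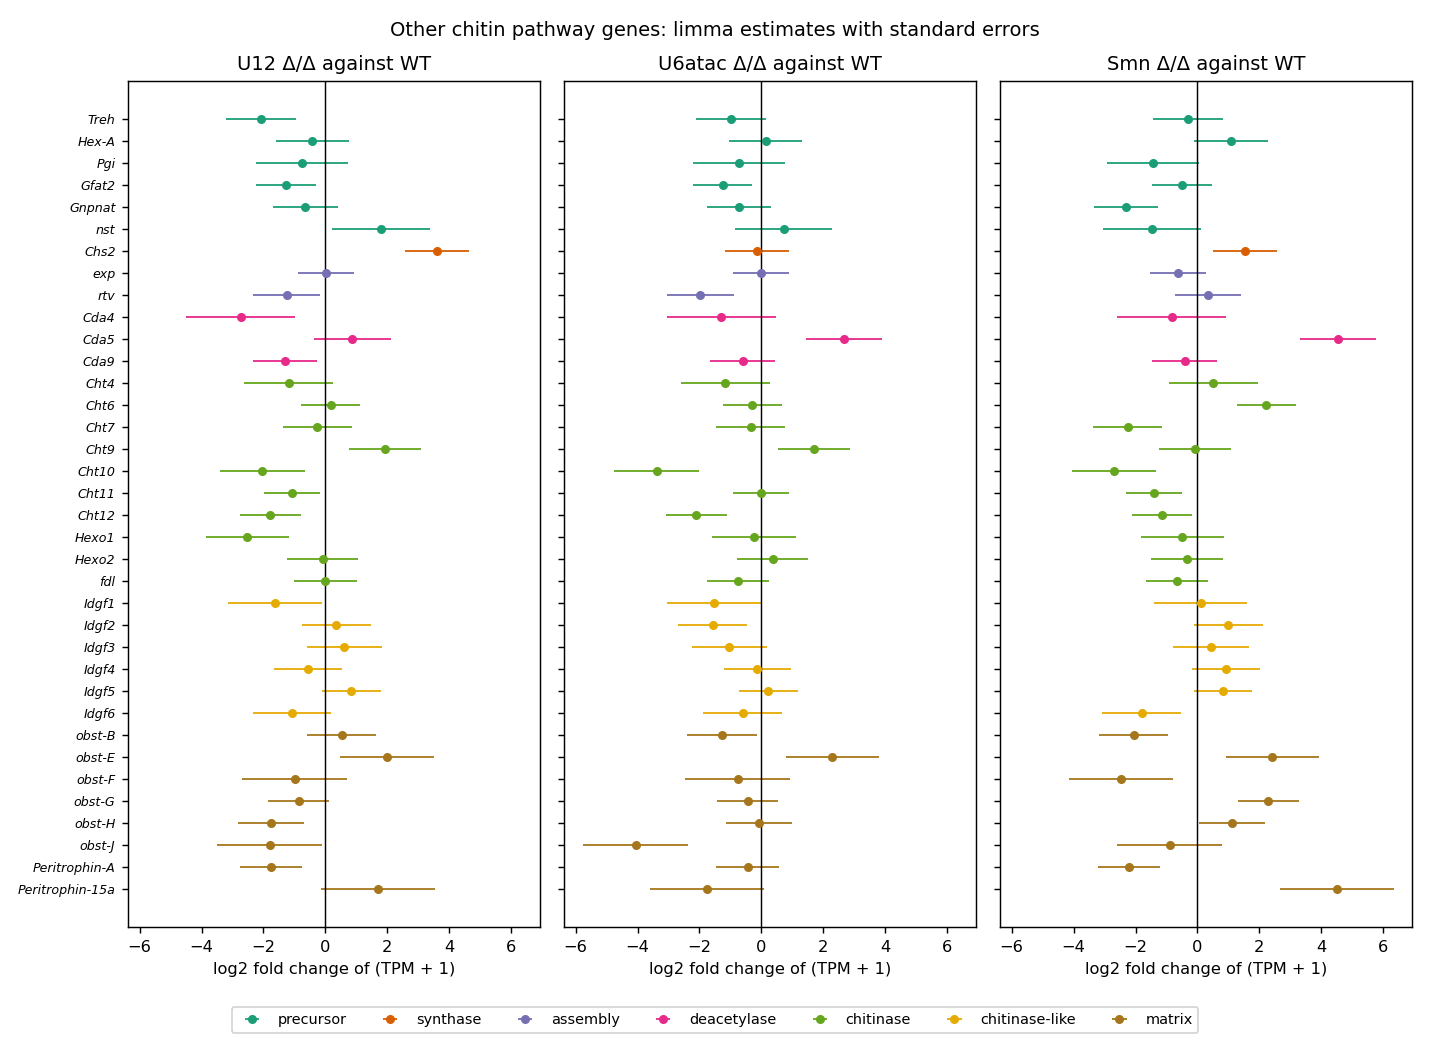
The log2 fold change of TPM + 1 against *WT* (x axis) of the 36 other chitin pathway genes tested (y axis), coloured by role, as limma estimates with standard errors. *Cda5* in the Smn strain (4.54) and *obst-J* in the U6atac strain (−4.07) are among the points farthest from 0, and none passes the adjusted threshold.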

How the data were processed

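The authors trimmed the reads, mapped them to dm6 with TopHat2 and deposited TPM per gene for each of the 8 libraries. The submitters' processing notes also list featureCounts, and the tool that gave TPM, the number of reads per gene and the use of strand are not given in the sources used here. The depth behind each value is therefore unknown, and no counting interval is given. TPM sums to 1000000 in each library, so a few abundant genes lower the rest. Libraries were grouped by labelled genotype. All genes averaging 1 TPM or more entered a single limma 3.58.1 fit in R 4.3.3 (4 strains, eBayes with trend, two-sided, pseudocount 1), and p values were adjusted by Benjamini-Hochberg, threshold 0.05. An exact permutation test of 2 against 2 libraries cannot go below 0.333 and was not made. The study calls the 2 libraries of a strain biological repeats, each from larvae picked at random, and the labels do not say whether they were collected separately. Levels, ratios and listed neighbours were computed in Python 3.11.15. Positions were checked against Ensembl release 115 and were the same. The steps were tested on simulated data. For the limma fit, the simulated noise was independent between genes and smaller than the spread within strains here. That test therefore does not measure power or error in these data. The members, gene lists and tests were chosen with earlier results of these data known. Named were the 10 genes, any other pathway gene called, and per strain the 2 largest estimates each way among genes beyond both *WT* libraries, and the 3 genes most correlated with *kkv* and with the mean of the 10. Outside this rule, *exp* and *Peritrophin-A* were named as genes set beside *reb* and *obst-A*. As alternatives, the fit was repeated without a filter, with a minimum of 5, a pseudocount of 0.1, quantile normalization, median-ratio scaling, a fit of 4 libraries, a replicate block, no trend, centring on 10 listed neighbours, and leaving out each library. The centring used the 10 nearest rows of all genes, tested or not, while the gaps of listed neighbours were taken from the 10 nearest tested genes.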

Additional observations from a re-analysis of the deposited data

How the results depend on the processing

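No chitin gene passed the threshold under any alternative, in 270 estimates without and 240 with a library left out. The lowest limma adjusted p was 0.0865, for *knk* in the Smn strain without Smn replicate 1. Of 30 combinations of gene and strain, 24 kept their sign in every alternative that did not leave out a single library, and 16 in every one that did. The former group, with 270 estimates, includes the fit of only the 4 libraries compared.

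Signs turned under median-ratio scaling for *kkv* in the Smn strain (0.056), *Cht5* in the U12 strain (0.43) and *knk* in the U6atac strain (0.26), and under quantile normalization for *Cht5* in the U12 strain (0.33) and *knk* in the U6atac strain (0.46). Centred on the 10 listed neighbours they turned for *kkv* in the Smn strain (0.12), *knk* (−0.59), *Cht5* (0.20) and *Gasp* (−0.16) in the U12 strain and *Cht2* in the U6atac strain (−0.84). Median-ratio scaling moved the median of all genes from −0.18, −0.53 and −0.49 to −0.01, 0.04 and 0.07 in the Smn, U12 and U6atac strains, and that of the 10 genes to 1.81, 1.37 and 1.07.

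With single libraries left out, estimates in the Smn strain that turned sign ran from −1.24 to 0.98 for *kkv*, −0.97 to 0.12 for *serp* and −0.055 to 3.59 for *Gasp*. In the U12 strain they ran from −0.73 to 1.02 for *knk*, −0.36 to 3.43 for *verm*, −0.091 to 2.46 for *Cht2*, −1.63 to 1.16 for *Cht5* and −1.72 to 1.93 for *Gasp*. In the U6atac strain they ran from −0.23 to 1.80 for *mmy*, −0.84 to 1.38 for *kkv*, −0.73 to 0.46 for *knk*, −0.71 to 3.08 for *verm*, −2.72 to 3.88 for *Cht2* and −1.38 to 2.27 for *Gasp*.

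Over all genes, the 168 called in the Smn strain became 267 without a filter, 89 at a mean TPM of at least 5, 50 in a fit of only the 4 libraries compared, 90 without the trend and 330 centred on listed neighbours. Without a filter 18 genes were called in the U6atac strain. Leaving out a library gave 76 (without *WT* replicate 1) to 215 (without Smn replicate 2) in the Smn strain, 0 to 43 in the U12 strain and 0 to 58 in the U6atac strain, both highest without *WT* replicate 2. With a strain at 1 library, that library was taken to vary like the others. The cause of these changes was not tested. Of the other pathway genes 1 was called in the Smn strain when centred on listed neighbours, *Gnpnat* (−3.46, adjusted p 0.045). Same-numbered libraries were not taken as pairs, since the labels state no pairing and their deviations correlated at −0.02 to 0.11 over 6 pairs of strains. With the replicate block 149 genes were called in the Smn strain, 0 in the other strains, and 0 of the 10 chitin genes in any. The number of libraries and the gaps between them limit every comparison.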
